A study of Mus musculus with 6 samples.

Results

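The 10 genes described here are NRF2 (gene Nfe2l2), its inhibitor KEAP1 (Keap1), the NRF2 target enzymes Nqo1, Hmox1, Txnrd1 and Srxn1, and the pentose phosphate enzymes G6pdx, Pgd, Tkt and Taldo1. They were picked out by symbol from a table of 26231 genes, by a rule that sets no condition on their values, and all 10 have a row. The study sequenced total RNA of immortalized mouse embryonic fibroblasts (MEFs) in 3 libraries labelled MEF WT (control) and 3 labelled MEF Nf2 KO. Nf2 encodes Merlin, a tumor suppressor that links the cell cortex to growth control. All cells came from FVB embryos, aged about 14 days in the sample labels, whose Nf2 alleles are flanked by loxP sites (Nf2 fl/fl). They were immortalized with a lentivirus carrying SV40 large T antigen, so the controls carry it too. The control line then received a CMV-GFP lentivirus and the Nf2 KO line a CMV-Cre GFP lentivirus, in which the CMV promoter drives Cre recombinase. Both were kept without serum for 24 h before RNA was extracted. The study describes a single line of each kind, so Nf2 loss, Cre and the separate history of the lines cannot be told apart. The 3 libraries of each label carry the marks A, B and 2018, which the labels do not explain.

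NRF2 is a transcription factor that KEAP1 holds in the cytoplasm and hands to a CUL3 ubiquitin ligase for degradation. Oxidants and electrophiles that modify KEAP1 let NRF2 accumulate, pair with a small MAF protein and bind antioxidant response elements in DNA. Its targets detoxify quinones, break down heme, reduce thioredoxin and peroxiredoxins, and supply the NADPH that these reductions consume. Because this control acts largely on the NRF2 protein, RNA levels of Nfe2l2 and Keap1 do not by themselves measure NRF2 activity.

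The core letters of an antioxidant response element, TGACNNNGC, were searched on both strands from 250 bases before to 50 bases after the start of each gene in RefSeq (GRCm38.p6). The search covered 12 windows of 9 of the 10 genes, and Hmox1 was not among them. The letters occurred in 5 of the 12 windows, against 4071 of all 32851 windows of this length (12.4%). These were windows of G6pdx, Nfe2l2, Srxn1, Txnrd1 and Pgd, and none of the 5 matches overlapped the AP-1 letters TGACTCA on either strand. A match describes the letters only, not a bound site. The 250 bases before the start are shown for the 3 genes with a match there, namely the first pentose phosphate enzyme, NRF2 itself and the member that was higher in the B libraries, each 5′ to 3′ on the gene's strand with the match in capitals.
G6pdx, chrX:74428881-74429130, minus strand, match at -57 to -49 from the start, on the opposite strand: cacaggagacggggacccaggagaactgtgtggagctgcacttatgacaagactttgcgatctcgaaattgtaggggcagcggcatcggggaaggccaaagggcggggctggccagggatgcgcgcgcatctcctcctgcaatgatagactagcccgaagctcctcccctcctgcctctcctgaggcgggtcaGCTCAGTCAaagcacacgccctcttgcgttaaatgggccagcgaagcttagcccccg
Nfe2l2, chr2:75704664-75704913, minus strand, match at -240 to -232, on the gene's strand: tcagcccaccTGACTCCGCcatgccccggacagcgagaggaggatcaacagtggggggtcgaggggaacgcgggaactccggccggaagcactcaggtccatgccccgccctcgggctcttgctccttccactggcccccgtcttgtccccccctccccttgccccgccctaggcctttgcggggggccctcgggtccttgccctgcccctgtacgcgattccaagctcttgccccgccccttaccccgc
Txnrd1, chr10:82858956-82859205, plus strand, before 1 of its 3 listed starts, match at -92 to -84, on the opposite strand: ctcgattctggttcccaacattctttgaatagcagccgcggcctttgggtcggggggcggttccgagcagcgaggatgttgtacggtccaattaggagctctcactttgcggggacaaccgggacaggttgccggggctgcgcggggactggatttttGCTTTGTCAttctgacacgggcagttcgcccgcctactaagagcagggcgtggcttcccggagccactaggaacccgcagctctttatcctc

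Values are RPKM, the reads of a gene divided by its exon length and by the library's size, a unit inferred from the values because no source used here names it. Depth, recovered from the steps between low values, was 13462402 to 19288129 reads in the A and B libraries and 61238730 to 73093043 reads in the 2018 libraries. Nf2 had 14.3, 13.7 and 13.1 RPKM in the control libraries A, B and 2018, and 15.4, 12.9 and 13.9 RPKM in those labelled Nf2 KO. The log2 fold change of 0.033 (limma adjusted p = 0.987, standard error, SE, 0.096) did not separate the labels, and the whole-gene value does not show a deleted exon, so each difference between the lines follows the labels alone. The B libraries stood apart. With the line as covariate they differed from the other 4 in 3386 of 11067 genes tested, and without it in 1976. Between the labels 117 genes passed without a covariate, against 833 when the replicate number entered as a block. Of 10 fibroblast markers, 9 passed the filter on low values and Lum had at most 0.247 RPKM. Their summed level was 1855 to 2554 RPKM in the controls and 1444 to 1876 RPKM in the libraries labelled Nf2 KO. Pdgfra, Dcn and Fn1 were lower in the latter (adjusted p = 0.0329, 0.0348 and 0.0390 from limma), as were 64 of all 11067 genes tested. Col1a1, Col1a2, Col3a1, Pdgfra and Pdgfrb were lower in the B libraries, as were 19.8% of all genes tested. Thy1, Vim and Fn1 had positive log2 fold changes in B (0.48, 0.11 and 0.037), and none of these 3 passed. The summed markers of macrophages were 5.92 to 8.65 RPKM, mostly Cd68, with Ptprc and Adgre1 under 0.1 RPKM in every library. In bulk samples, fewer cells of a type and less RNA per cell cannot be told apart.

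All 10 genes were well above the filter of at least 1 RPKM in at least 3 libraries, with no member under 1 RPKM in any library. On the RPKM scale, which divides by exon length, Txnrd1 (mean 51.2 over 6 libraries) and Hmox1 (50.1) were the most abundant. Txnrd1 exceeded Hmox1 in 3 of the 6 libraries, so their order is not set. Taldo1 followed at 33.0, then G6pdx at 29.5 and Pgd at 29.4, a pair that also ranked either way in 3 of 6 libraries. Srxn1 (22.8) and Nfe2l2 (21.8) exchanged places in 2 of the 6 libraries. Keap1 had 14.6 RPKM, Tkt 9.89 and Nqo1 8.68, and Tkt exceeded Nqo1 in 5 of 6 libraries. Both B libraries lay below the other 4 for 29.8% of all genes tested. The library labelled Nf2 KO B held the lowest value of 8 of the 10 genes, a count that was not made over all genes. The estimated reads behind a value ranged from 168 for Nqo1 in that library to 26493 for Txnrd1 in the library labelled Nf2 KO 2018.

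**Figure D1:**
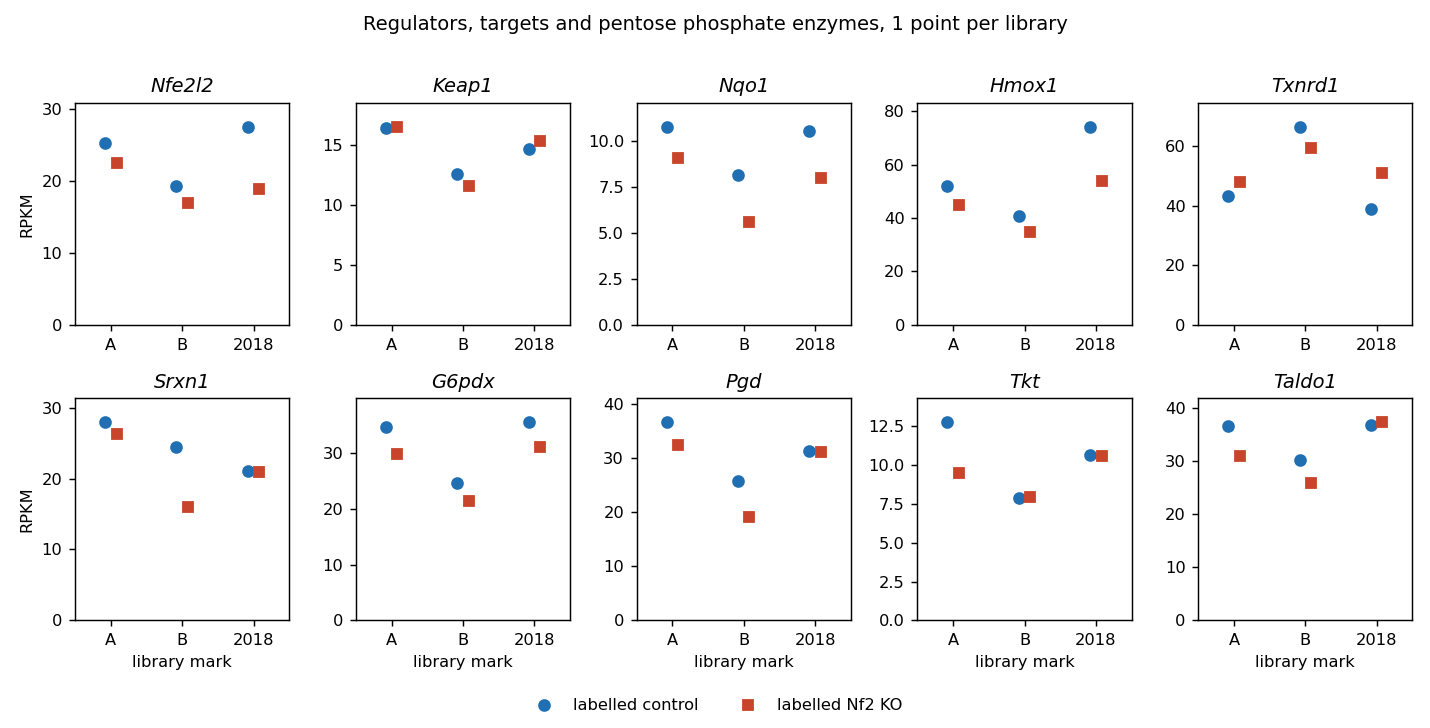
RPKM (vertical axis, from 0) of each of the 10 genes in each library, by library mark A, B or 2018. Circles are control libraries and squares those labelled Nf2 KO. Both B points lie below the other 4 points for Keap1, Hmox1, G6pdx, Pgd, Tkt and Taldo1, and above them for Txnrd1.

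Nfe2l2, the gene of NRF2, lies on chromosome 2 from 75675513 to 75704641 on the minus strand (GRCm38, GENCODE vM21, as are the positions that follow). It had 25.3, 19.3 and 27.6 RPKM in the control libraries A, B and 2018, and 22.5, 17.0 and 18.9 RPKM in those labelled Nf2 KO. The level was lower under the Nf2 KO label within each of the marks, most in 2018, but the groups overlapped. Group means were 24.1 ± 4.25 and 19.5 ± 2.81 RPKM (SD, n = 3 each). The log2 fold change, here and throughout on log2(RPKM + 1), was -0.29 (limma adjusted p = 0.712, SE 0.16), and the difference was not past the threshold of 0.05.

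Keap1, on chromosome 9 from 21229730 to 21239361, encodes the protein that senses oxidants and holds NRF2. Its level was 16.4, 12.6 and 14.7 RPKM in the controls and 16.6, 11.6 and 15.4 RPKM under the Nf2 KO label, in the order A, B and 2018. The labels interleaved and both B libraries were lowest. Between labels the log2 fold change was -0.013 (limma adjusted p = 0.997, SE 0.16), and it turned positive without control A (0.070) or without the library labelled Nf2 KO B (0.13).

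Nqo1, a quinone reductase that uses NADPH or NADH, lies on chromosome 8 from 107388225 to 107403206. It had 10.8, 8.11 and 10.5 RPKM in the control libraries A, B and 2018, against 9.08, 5.61 and 7.97 RPKM under the Nf2 KO label. Each Nf2 KO value was below the control value of its own mark, although the 9.08 of Nf2 KO A exceeded the 8.11 of control B. Counting error alone gave 95% Poisson intervals of 7.12 to 9.21 RPKM for control B and 4.79 to 6.52 RPKM for the library labelled Nf2 KO B. The means were 9.80 ± 1.46 and 7.55 ± 1.77 RPKM (SD, n = 3 each), a ratio of 0.771. Its log2 fold change was -0.35 with a standard error of 0.18 and an adjusted p of 0.667 from limma. With the replicate number as a block, which sets A against A, B against B and 2018 against 2018, the standard error was 0.072 and the adjusted p 0.0464 from limma. Under the block the adjusted p was 0.0482 with median centring, 0.0512 with quantile normalization and 0.0515 with voom on recovered reads, so this call stood at the edge of the threshold.

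Hmox1, the inducible heme oxygenase, lies on chromosome 8 from 75093621 to 75100589 and varied most, with a highest value 2.13 times its lowest. It had 52.0, 40.7 and 74.2 RPKM in the controls A, B and 2018, and 45.0, 34.8 and 53.9 RPKM under the Nf2 KO label. The Nf2 KO value was lower within each mark and the groups overlapped. Hmox1 differed by -0.29 on the log2 scale (limma adjusted p = 0.884, SE 0.25, and adjusted p = 0.0929 with the block).

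Txnrd1, the cytosolic thioredoxin reductase, lies on chromosome 10 from 82833951 to 82897712. It had 43.4, 66.6 and 38.8 RPKM in the controls and 47.9, 59.3 and 51.2 RPKM under the Nf2 KO label. The B libraries were the highest of all, and the labels differed in opposite directions by mark, with Nf2 KO higher in A and 2018 and lower in B. The log2 fold change between labels was 0.12 (limma adjusted p = 0.970, SE 0.21) and turned to -0.032 without control 2018. Srxn1, on chromosome 2 from 152105516 to 152111376, encodes sulfiredoxin, which repairs overoxidized peroxiredoxins. It had 27.9, 24.5 and 21.1 RPKM in the controls and 26.3, 16.0 and 21.0 RPKM under the Nf2 KO label. Its only wide gap between labels was in mark B. Its difference on the log2 scale was -0.22 (limma adjusted p = 0.886, SE 0.19).

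The oxidative branch of the pentose phosphate pathway makes NADPH in its G6pdx and Pgd steps. G6pdx, glucose-6-phosphate dehydrogenase, lies on chromosome X from 74409483 to 74429194 and had 34.6, 24.5 and 35.5 RPKM in the controls and 29.8, 21.4 and 31.1 RPKM under the Nf2 KO label. The gap between labels was alike in the 3 marks, -0.21, -0.19 and -0.19 on the log2 scale for A, B and 2018. Over all libraries it was -0.19 (limma adjusted p = 0.919, SE 0.20, and adjusted p = 0.132 with the block). Its near copy G6pd2 has no row in the table. Pgd, 6-phosphogluconate dehydrogenase, on chromosome 4 from 149149991 to 149166771, had 36.7, 25.9 and 31.4 RPKM in the controls and 32.5, 19.1 and 31.0 RPKM under the Nf2 KO label. Within marks it was lower under the Nf2 KO label in all 3, by as little as 0.016 on the log2 scale in 2018. The log2 fold change was -0.20 (limma adjusted p = 0.934, SE 0.23), and 0.034 without the library labelled Nf2 KO B.

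The non-oxidative branch exchanges carbon between sugars through transketolase and transaldolase. Tkt, on chromosome 14 from 30548359 to 30574720, had 12.8, 7.86 and 10.6 RPKM in the controls and 9.52, 7.94 and 10.6 RPKM under the Nf2 KO label. Only mark A showed a gap. Its log2 fold change was -0.13 (limma adjusted p = 0.956, SE 0.18) and 0.021 without control A. Taldo1, on chromosome 7 from 141392199 to 141402968, had 36.6, 30.2 and 36.8 RPKM in the controls and 30.9, 25.9 and 37.3 RPKM under the Nf2 KO label. It was lower under the Nf2 KO label in A and B and not in 2018, with a log2 fold change of -0.15 (limma adjusted p = 0.925, SE 0.15).

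Across the 10 genes, 0 passed between the labels by limma without the block, where 1.06% of all genes tested passed. At an unadjusted p under 0.05 it was 0 as well, beside 1097 of the 11067 genes tested. By voom on recovered reads 0 passed, where 150 of 11046 genes did. With the block 1 passed, Nqo1, where 7.53% of all genes passed. With the block, 4 of the 10 had an unadjusted p under 0.05 by limma, beside 2563 of the 11067 genes tested. By voom with the block 5 did, beside 2830 of 11046 genes. The log2 fold change was negative for 9 of the 10, with a median of -0.20 against -0.0078 over all genes tested. Nfe2l2, Nqo1, Hmox1, Srxn1, G6pdx and Pgd were lower under the Nf2 KO label within all 3 marks, as were 24.6% of all genes tested. The labels overlapped for all 10 members, while they did not overlap for 15.1% of all genes.

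**Figure D2:**
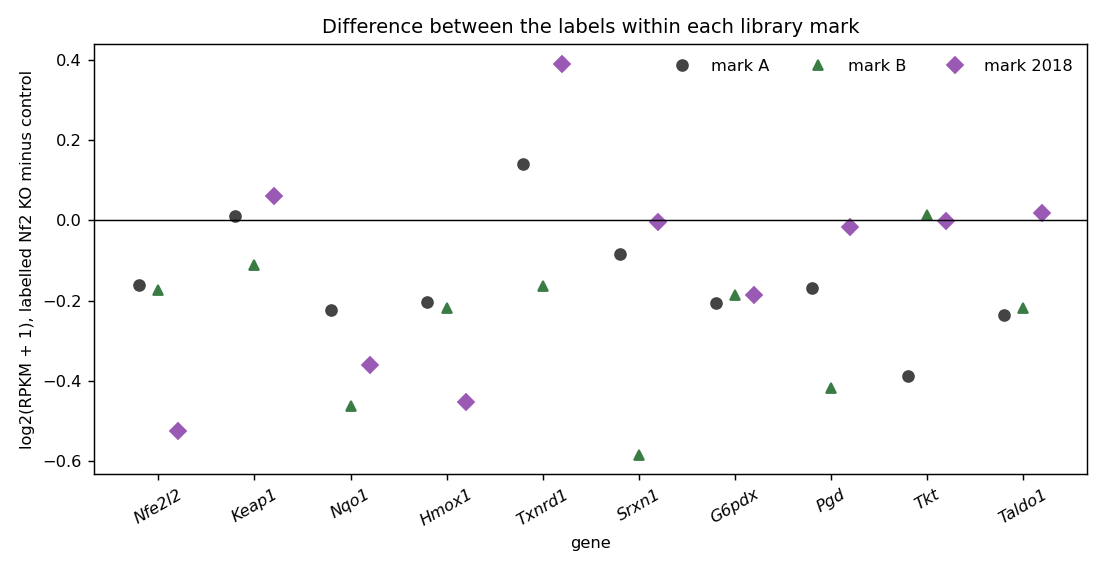
Difference of log2(RPKM + 1) between the libraries labelled Nf2 KO and control within mark A (circles), B (triangles) and 2018 (diamonds), for each of the 10 genes. All 3 points lie below 0 for Nfe2l2, Nqo1, Hmox1, Srxn1, G6pdx and Pgd, and the points of Keap1, Txnrd1, Tkt and Taldo1 lie on both sides.

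The B libraries were then compared with the A and 2018 libraries, with the line as a covariate. Of the 10 genes, 9 passed the threshold by limma, 8 lower in B and 1, Txnrd1, higher. Among all genes tested 30.6% passed, 19.8% lower and 10.8% higher. The median log2 fold change of the 10 was -0.38, against -0.078 over all genes. Hmox1 had a mean of 37.8 RPKM in the B libraries and 56.3 ± 12.5 RPKM (SD, n = 4) in the others, a log2 fold change of -0.54 (limma adjusted p = 0.0335, SE 0.15). Txnrd1 had a log2 fold change of 0.47 (limma adjusted p = 0.0210, SE 0.11).

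The oxidative enzymes G6pdx and Pgd fell to 0.702 and 0.684 of the mean of the other libraries. Their log2 fold changes were -0.49 (limma adjusted p = 0.00393, SE 0.070) and -0.54 (limma adjusted p = 0.0103, SE 0.10). Tkt fell by 0.41 and Taldo1 by 0.33 on the log2 scale, with adjusted p of 0.0217 and 0.0361 from limma. Of all genes tested 19.8% were called lower in B, and Taldo1 lost its call with median centring. Among the regulators, Nfe2l2 and Keap1 both fell by 0.35 (adjusted p = 0.0333 and 0.0189 from limma), and Nqo1 fell by 0.44 (adjusted p = 0.00995). Srxn1 had a log2 fold change of -0.26 (limma adjusted p = 0.281, SE 0.17).

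Both B libraries lay below the other 4 for Keap1, Hmox1, G6pdx, Pgd, Tkt and Taldo1, as for 29.8% of all genes tested. They lay above the other 4 for Txnrd1, as for 16.8% of all genes. Without control B, or without the library labelled Nf2 KO B, a single B library was left, so only effect sizes are given for these 2 fits. The log2 fold change of G6pdx was then -0.49 and -0.50, that of Txnrd1 0.26 and 0.69, and that of Srxn1 -0.53 and 0.012. The other 7 remained negative in both fits. With 1 of the other libraries left out, 7 or 8 of the 10 passed. With every library in, 30.6% of all genes tested passed. Median centring moved the split of all genes from 1195 higher and 2191 lower to 1698 higher and 1536 lower, and under it Nfe2l2, Hmox1 and Taldo1 were no longer called, so 6 of the 10 passed where 29.2% of all genes did. The log2 fold changes of these 3 genes were then -0.28, -0.47 and -0.25 (limma adjusted p = 0.0671, 0.0659 and 0.0977). Whether the difference between the labels itself differed in B was tested as an interaction, and 0 of the 10 passed by limma (0 at an unadjusted p under 0.05), in a fit with 1 B library of each label. Over all 11067 genes tested 0 passed as well (313 at an unadjusted p under 0.05), so this says nothing about the members.

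**Figure D3:**
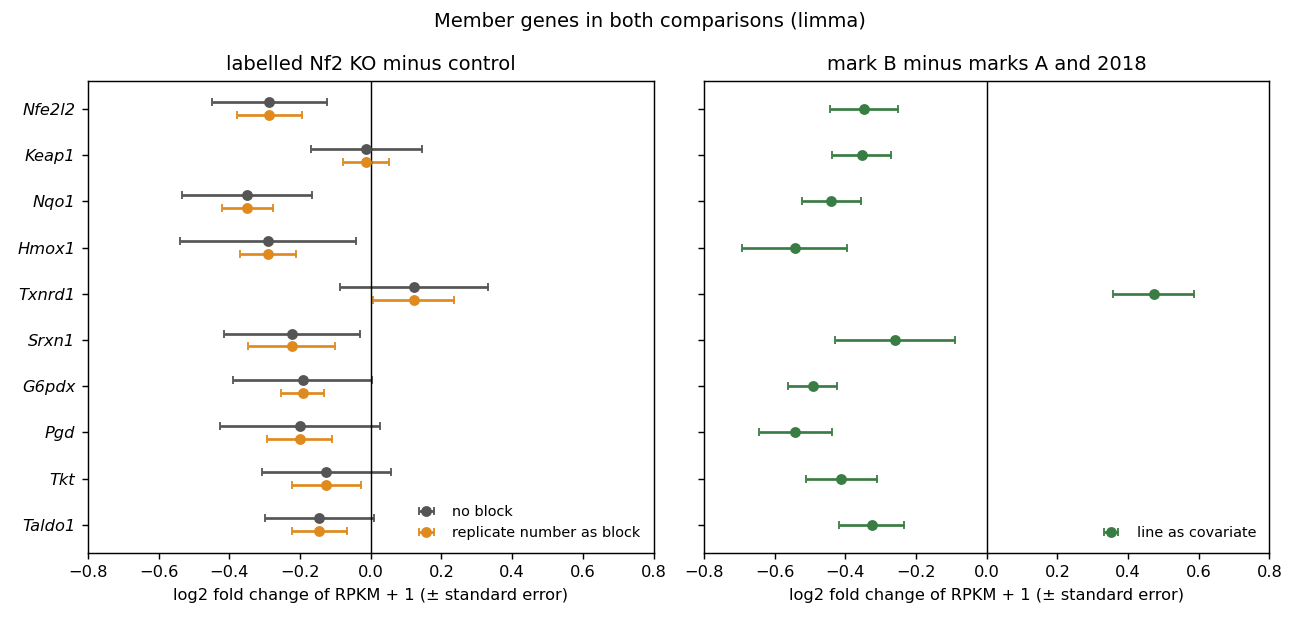
Log2 fold change of RPKM + 1 with its standard error (bars) for the 10 genes. The left panel compares the libraries labelled Nf2 KO with the controls, without (grey) and with (orange) the replicate number as a block, and the right panel the B libraries with A and 2018. Between marks, Txnrd1 lies at 0.47 and the other 9 between -0.54 and -0.26.

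Genes that work with these 10 were taken from 8 lists, in which 73 different genes passed the filter. Between the labels 0 of the 73 passed by limma, where 1.06% of all genes tested did, and 0 by voom. At an unadjusted p under 0.05 it was 9 of the 73 by limma, beside 1097 of all 11067 genes tested. With the block 7 passed, 2 higher and 5 lower under the Nf2 KO label. This was near the 7.53% of all genes tested that passed with the block, so the count does not set these lists apart. Mafk, a small MAF protein that pairs with NRF2, had 6.61, 16.2 and 7.49 RPKM in the controls A, B and 2018 and 8.76, 22.5 and 11.2 RPKM under the Nf2 KO label. It was higher under that label within every mark (log2 fold change 0.45, adjusted p = 0.0187 from limma with the block, 0.902 without). Prdx6, a peroxiredoxin, had 18.1, 23.8 and 20.4 RPKM against 22.1, 32.5 and 33.1 RPKM (log2 fold change 0.46, adjusted p = 0.0415 with the block, 0.461 without). Por, which passes electrons from NADPH to cytochrome P450, had 25.8, 32.0 and 28.1 RPKM against 19.6, 21.3 and 20.7 RPKM. Every value under the Nf2 KO label was below every control value. On the log2 scale Por differed by -0.46, with an adjusted p of 0.0197 from limma with the block and 0.144 without. Gsta4, a glutathione transferase for lipid aldehydes, had 16.8, 5.62 and 20.7 RPKM against 9.17, 3.56 and 7.88 RPKM (log2 fold change -0.88, adjusted p = 0.0298 with the block, 0.716 without). The others lower with the block were the exporter Abcc1, the esterase Esd and the heme transporter Slc48a1, at log2 fold changes of -0.33, -0.42 and -0.49. Gclc and Gclm, the subunits of glutamate-cysteine ligase, had log2 fold changes of -0.15 and 0.091 (adjusted p = 0.327 and 0.531 with the block).

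In the B libraries 34 of the 73 genes passed by limma, 12 higher and 22 lower, where 30.6% of all genes tested passed, 10.8% higher and 19.8% lower. These shares of all genes are the background for each list that follows. Of 12 tested genes that control NRF2, 4 rose (10.8% of all genes did) and 2 fell (19.8% of all genes did). Maff, another small MAF, had 26.4 and 30.8 RPKM in the B libraries and 6.92 to 11.7 RPKM in the others, a log2 fold change of 1.57 (limma adjusted p = 0.000618, SE 0.10). Mafk rose by 1.10 on the log2 scale (adjusted p = 0.00131), while Mafg had a log2 fold change of -0.086 (adjusted p = 0.410). Bach1 and Bach2, repressors at the same DNA elements, rose by 0.34 and 0.56. Sqstm1, the autophagy receptor p62 that competes with NRF2 for KEAP1, had 105 and 87.9 RPKM in B and 135 to 159 RPKM elsewhere, and Nfe2l1, a relative of NRF2, fell by 0.35. Cul3, the ligase scaffold, had a log2 fold change of 0.061 (adjusted p = 0.544).

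Of 25 tested other NRF2 targets, 4 rose and 10 fell in B, beside 10.8% and 19.8% of all genes. Gstm1 had 8.77 and 8.02 RPKM in B and 21.4 to 32.6 RPKM elsewhere, a log2 fold change of -1.49 (adjusted p = 0.00125 from limma). Gsta4 fell by 1.31, and catalase (Cat), which removes hydrogen peroxide, fell by 0.66. The ferritin chains Ftl1 and Fth1, which store iron, fell by 0.86 and 0.74, and Slc48a1 by 0.75. The remaining falls were those of Cbr1, Ephx1, Gsr and Pir. Ferritin and glutathione transferase genes have near copies elsewhere in the genome, so the assignment of their reads is uncertain. Abcc1, Abcc4, Cbr3 and Esd rose by 0.36 to 0.48. Ferritin and Slc48a1 also stand in the list of heme and iron partners, where Hmox2, the constitutive heme oxygenase, fell as well, and 4 of 8 tested genes fell and 0 rose. Gclc and Gclm did not pass (adjusted p = 0.937 and 0.333 from limma).

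Among 14 tested other suppliers of NADPH, 2 rose and 4 fell in B, not far from the 10.8% and 19.8% of all genes. Idh1, the cytosolic NADP-dependent isocitrate dehydrogenase, had 12.7 and 11.3 RPKM in B and 37.7 to 49.6 RPKM in the others, a log2 fold change of -1.73 (limma adjusted p = 0.000661, SE 0.12). Its mitochondrial relative Idh2 had 25.7 and 21.8 RPKM in B and 42.5 to 57.9 RPKM elsewhere, a log2 fold change of -1.02. Aldh1l2, a folate enzyme of mitochondria, fell by 1.33 and the transhydrogenase Nnt by 0.43. Nadk, which makes NADP from NAD, rose by 0.35 and Glud1 by 0.34. Me1, malic enzyme, had a log2 fold change of -0.18 (adjusted p = 0.167). Between the labels 0 of these 14 passed with or without the block, where 7.53% and 1.06% of all genes did.

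Of the 6 other tested pentose phosphate genes, H6pd fell in B by 0.38 and Prps1 rose by 0.41, and 4 did not pass. Of 11 thioredoxin and sulfiredoxin partners, Txnrd3 rose by 0.53 and Prdx2 fell by 0.43, whereas thioredoxin itself, Txn1, had a log2 fold change of 0.098 (adjusted p = 0.493 from limma). In the list of quinone and flavin reductases, Cryz, Nqo2 and Cbr1 fell and Cbr3 rose, of 6 tested. Of the NADPH oxidases only Cyba, a shared subunit, passed the filter, and it fell in B by 0.45. Nox4 had 0.0560 to 0.270 RPKM, Duox1 0.430 to 1.24 RPKM and Duox2 0.00810 to 0.0432 RPKM over the 6 libraries, and none of the 3 was tested.

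**Figure D4:**
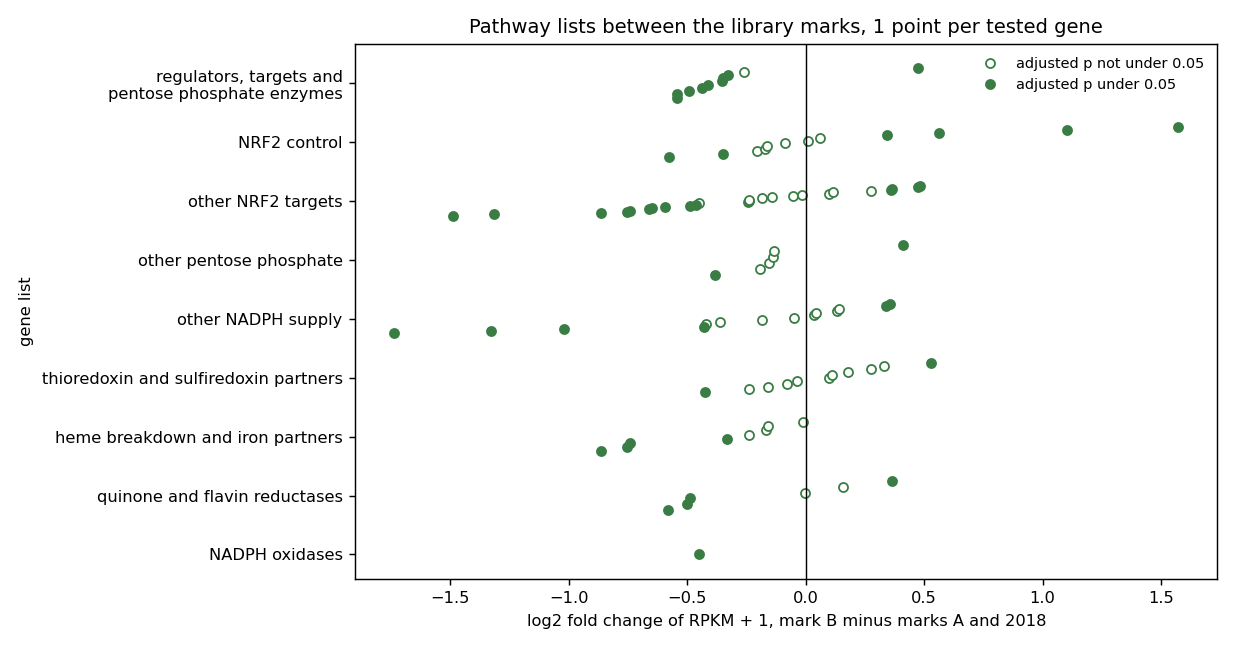
Log2 fold change of RPKM + 1 between the B libraries and the A and 2018 libraries, 1 point for each tested gene, by list. Filled points passed the threshold in limma. In the top row 9 of 10 genes lie between -0.54 and -0.26, while the other lists spread from -1.73 for Idh1 to 1.57 for Maff.

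**Figure D5:**
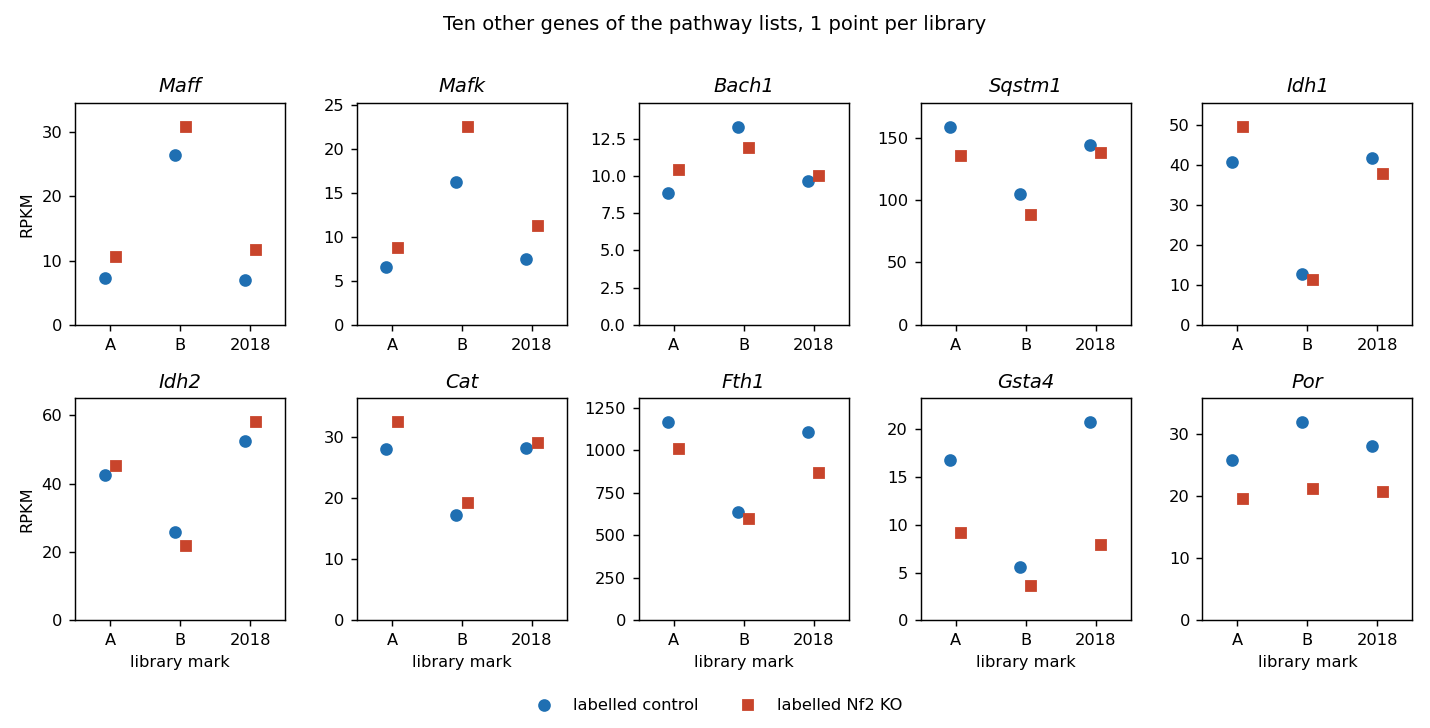
RPKM (vertical axis, from 0) in each library of 10 genes from the other lists, by library mark. Circles are control libraries and squares those labelled Nf2 KO. The B libraries are highest for Maff, Mafk and Bach1 and lowest for Sqstm1, Idh1, Idh2, Cat, Fth1 and Gsta4.

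Markers of other cell types were summed beside mark B, and Kdr was the only one of them past the threshold between the marks (limma adjusted p = 0.00165). Macrophage markers summed to 7.09 to 7.54 RPKM in B, within the 5.92 to 8.65 RPKM of the other libraries. This sum was mostly Cd68, with Ptprc, Adgre1, Fcgr1, Itgam and Mrc1 under 0.1 RPKM in every library. Epithelial markers summed to 27.8 to 39.6 RPKM in B and 10.6 to 23.8 RPKM elsewhere, nearly all of it Krt19 (limma adjusted p = 0.0506), with Cdh1 and Krt14 under 0.1 RPKM in every library. Endothelial markers summed to 3.89 to 4.45 RPKM in B and 1.46 to 1.84 RPKM elsewhere, mostly Kdr, with Pecam1, Tek and Emcn under 0.1 RPKM. Skeletal muscle markers summed to 2.70 to 6.27 RPKM in B and 0.508 to 0.752 RPKM elsewhere, mostly Acta1, with Myh3 and Ckm under 0.1 RPKM and none of these markers tested. Fibroblast markers summed to 1444 to 1855 RPKM in B and 1654 to 2554 RPKM elsewhere. The part of these in the differences above was not tested.

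Over the 6 libraries, and among 7023 genes averaging 5 RPKM or more, those with the pattern most like Nfe2l2 were Lgals3bp, Eno2 and Itm2b, each with a Pearson r of 0.989 on log2(RPKM + 1). Lgals3bp had 18.6, 9.80 and 19.9 RPKM in the controls and 15.0, 7.10 and 9.79 RPKM under the Nf2 KO label. For Keap1 the nearest were Pogz (0.997), Net1 (0.995) and Nrde2 (0.994), and for Nqo1 they were Cd99l2 (0.997), Dbnl and Dap (0.990 each). With 6 libraries, 66, 142 and 76 genes exceeded an r of 0.95 for Nfe2l2, Keap1 and Nqo1, and the points share the marks and the labels, so these values only describe likeness.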

How the data were processed

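The table that the authors deposited holds values taken here as RPKM, made at GENEWIZ from the sequenced reads, for 26231 genes in 6 libraries. Values multiplied by GENCODE vM21 exon length were whole reads within 0.05 read for 85.0% to 87.4% of values of up to 10 reads (10% by chance), as RPKM would give. The submitters' processing notes name the build mm10, and the aligner and counting tool are not given in the sources used here. Nothing says that the replicates were separate cultures, so p-values measure the spread between libraries, which may be technical.

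The 11067 genes that reached 1 RPKM in 3 or more libraries were tested on log2(RPKM + 1), a scale that understates changes of low genes. Limma 3.58.1 in R 4.3.3 was used with its trend and robust options, two-sided p-values were adjusted over these genes by the method of Benjamini and Hochberg, and 0.05 was the threshold. The labels were compared without a covariate, as in the study, and B with A and 2018 with the line as covariate. Deviations of same-numbered libraries from their group means correlated at 0.552, 0.819 and 0.516. Within a line the deviations of a gene cancel, so a shift of B shared by both lines can by itself make each of these values positive. They therefore do not show that A belongs with A or 2018 with 2018, and differently numbered libraries were not correlated. A fit that took the replicate numbers from the sample titles as pairs, with the number as a block, was added. The limma fits were run on simulated data with independent noise in each library. These data held no effect shared by a replicate number, so they do not test the block in that setting. Read estimates and Poisson intervals cover counting error only.

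The rule for the members is a list of symbols and uses no measured value, but that list and the other gene lists were chosen with earlier results of these data known. Named genes are Nf2, the 10 members, list genes past the threshold in a fit, genes that the study names, and the 3 genes most correlated with Nfe2l2, Keap1 and Nqo1. Others (Mafg, Cul3, Me1, Txn1 and single cell type markers) were named after their values were seen. Motifs were searched in RefSeq promoters. Alternatives were other normalizations, filters, pseudocounts, thresholds, covariates and libraries left out. Voom on recovered reads and the block combined with another scaling were chosen after seeing the data.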

Additional observations from a re-analysis of the deposited data

Results flagged for a closer look

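Among the 4 libraries not marked B, the Taldo1 value of the library labelled Nf2 KO A (30.9 RPKM) stood apart from the other 3 (36.6 to 37.3 RPKM). Its gap to the nearest was 0.887 of the range, above Dixon's 95% critical value for 4 samples. Chance flags about 1 in 20 groups, and 10 genes were examined in this way, with 1 past the value.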

How the results depend on the processing

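Between the labels, 117 genes passed. The number was 9 without a filter, 63 with a filter of 5 RPKM, 62 with the 2018 mark as a covariate, 9 at an adjusted p under 0.01, and 0 to 484 when a library or replicate number was left out. With the replicate block it was 833, and with the block it was 1182 by voom, 812 with median centring and 785 with quantile normalization. Members past the threshold rose from 0 to 1 with the block and to 1 with the block and median centring. Genes of the other lists rose from 0 to 7 with the block, 10 by voom with the block, 7 with median centring and the block, 8 with quantile normalization and the block, and ranged from 0 to 2 when libraries were left out.

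The block changed no other member's call. With a library or replicate number left out, the sign of the label difference changed for Keap1 (-0.11 to 0.13, with 0.070 without control replicate 1 and 0.035 without replicate 2), Txnrd1 (-0.032 to 0.35, with -0.012 without replicate 3), Pgd (-0.33 to 0.034), Tkt (-0.30 to 0.021, with 0.0055 without replicate 1) and Nf2 (-0.030 to 0.091, with -0.0015 without replicate 1). Between marks it changed for Srxn1 (-0.53 to 0.012).

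For mark B, 3386 genes passed. The number was 884 without a filter, 1976 without the line covariate, 1162 at an adjusted p under 0.01 and 699 to 3375 with libraries left out. Quantile normalization gave 1553 higher and 1412 lower. Of the members, 9 passed, against 1 without a filter, 5 without the line covariate, 2 at an adjusted p under 0.01 and 1 to 8 with libraries left out. Of the other list genes, 34 passed, against 16 without a filter, 17 at an adjusted p under 0.01 and 9 to 38 with libraries left out. A stricter threshold lowers a count by construction, and without a filter 26231 genes entered the adjustment. Some counts rose with fewer libraries, such as 484 genes between the labels without replicate 2 and 38 list genes for mark B without Nf2 KO replicate 3. The causes of the other moves were not tested. The depth of the A and B libraries limits Nqo1 most, with a counting error of up to 7.72%.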

Other observations

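The ratio of Nfe2l2 to Keap1 in RPKM, chosen after their values were seen, was 1.54, 1.53 and 1.87 in the control libraries A, B and 2018, and 1.36, 1.46 and 1.22 in those labelled Nf2 KO. Every ratio under the Nf2 KO label was below every control ratio, and the ratio did not set the B libraries apart. The labels also did not overlap, in either direction, for 15.1% of all genes tested, while they overlapped for Nfe2l2 and for Keap1. No test was made of the ratio.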
